A study of Drosophila melanogaster with 36 samples.

Results

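The mitochondrial ribosomal protein genes of Drosophila melanogaster are described here across ageing heads, ageing muscles and whole flies of 3 Gcn5 genotypes. The members are all genes whose FlyBase symbol begins with mRpL (large subunit) or mRpS (small subunit). This gave 73 of the 17683 genes listed in the deposited files, 47 of the large and 26 of the small subunit. By the number in the name alone, 42 members were classed as having a bacterial counterpart and 31 as without one. This class was not checked by sequence and can be wrong for single members. Poly-A RNA of adult flies was read in 36 libraries. Muscles and heads came from wild-type (WT) flies of strain 5905 at 3, 15, 30 and 45 d of age, with 3 libraries per tissue and age. Whole flies were 3 d old, in 3 genotypes with 4 libraries each. The transgene group carried UAS-HA-Gcn5, a tagged transgene, with the tub-GAL4 driver, whose tubulin promoter is active in most cells. Its label also gives the gcn5 allele c450 on both homologs, so it is a mutant with a transgene, although the labels name it an overexpression. The gcn5 mutant was gcn5c450/c450, labelled a loss of function, and the last group was WT of strain 5905. Gcn5 is a lysine acetyltransferase, and the study addressed its role in adult and ageing flies. The labels give no sex and do not say whether libraries of a group came from separate animals or cultures, so the p-values measure only the spread between libraries.

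Mitochondria keep their own ribosome, which makes the few membrane proteins of the respiratory chain that the mitochondrial genome encodes. Its ribosomal RNAs are transcribed inside the organelle, from mt:lrRNA and mt:srRNA, whereas its proteins are encoded in the nucleus, made on cytosolic ribosomes and imported. The core proteins descend from the bacterial ancestor of mitochondria, and others were added later in eukaryotes. Flight muscle, which holds most of the muscle of a fly, is among the tissues richest in mitochondria. Some names do not give the position of a protein: in the mammalian ribosome, the counterparts of mRpS30 and mRpS18A sit in the large subunit. Subunits below follow the names.

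Counts in genes came to 3.00 to 3.68 M per muscle library, 3.18 to 4.36 M per head library and 1.62 to 2.82 M per whole-fly library. The members took 0.105 to 0.210% of the counts in muscles, 0.117 to 0.130% in heads and 0.104 to 0.116% in whole flies. Of the reads tallied for replicate 3 of muscle at 45 d, 41.0% were not assigned to a gene, against 10.2 to 16.3% in the other head and muscle libraries. By gene levels, another library stood apart. In replicate 3 of muscle at 3 d, 70 of 71 tested members had their highest level of the 3 libraries of that group. Their median log2 ratio to the mean of replicates 1 and 2 was 1.23, against 0.004 for all genes. The same library was highest for 82 of 82 cytosolic ribosomal proteins (1.56), 63 of 66 nuclear respiratory chain genes (1.12) and 6 of 7 gut markers (1.16), and lowest for 8 of 10 muscle markers (-0.79) and 6 of 6 neuron markers (-2.07). Gut marker transcripts were present in muscle libraries of all ages, at a summed 8149 to 8598 CPM at 15 d, against 40.7 to 57.7 CPM in heads. Counts of calls and medians in muscle that use 3 d are therefore given with and without that library, as are the changes of the members described by library. CPM is counts per M of counts in the tested genes, with library sizes scaled by TMM factors. The factors were set separately for heads, muscles and whole flies, so CPM of different tissues are not on one scale. A gene is called higher or lower at an edgeR adjusted p under 0.05 over all genes of a comparison. In bulk RNA, fewer cells of a type and less RNA per cell cannot be told apart.

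Of the members, 72 were listed for heads and muscles and 73 for whole flies, since mRpS5 was not analysed in heads and muscles. mRpL53 had 0 counts in every library and was tested nowhere. All of its 829 exon bases also belong to AGO1 and CG33155, so reads from it cannot be told apart from theirs. mRpL33 and mRpL34 fell under the count filter in whole flies, which left 71 tested members in heads and muscles and 70 in whole flies. In all, 43 members share some exon bases with another gene, 33 of them at most 10%, and the counts of such bases are uncertain. Per kb of exon, the median member had a level of 19.6 CPM per kb in heads at 3 d. The highest was mRpL28, a core large subunit protein, at 49.02 ± 4.05 CPM per kb (SD, n = 3). mRpS9, of the small subunit head, had 47.8 ± 2.82 and mRpL55, a large subunit protein without a bacterial counterpart, 42.7 ± 7.49 CPM per kb, and the ranges of these 3 means ± SD overlapped. At the other end, mRpL21 had 8.22 ± 0.436 and mRpS18B 9.13 ± 2.11 CPM per kb. In muscle the order differed: mRpS7, a small subunit protein that binds the ribosomal RNA of the head domain, led at 15, 30 and 45 d, with 138 ± 3.27 CPM per kb at 30 d, where the median member had 21.1.

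Summed over all members, levels in heads stayed within a narrow range over the ages. The sums were 1290.1, 1353 and 1233 CPM in the libraries of 3 d, 1239.7, 1199.6 and 1208 at 15 d, 1211, 1209 and 1196 at 30 d and 1100.0, 1171 and 1210.2 at 45 d. The libraries of 45 d lay below all those of 3 d, those of 15 d overlapped with both, and those of 30 d overlapped with 45 d but not with 3 d. At 45 d over 3 d, 1 of 71 members was higher and 6 were lower, where 17.5% of all genes were higher and 18.2% lower. The members' median log2 change was -0.18, against 0.008 for all genes, and 52 of 71 had a negative value. Both subunits had a like median, -0.15 for the small and -0.19 for the large, and so had members with a bacterial counterpart (-0.18) and without (-0.17). With scaling by library size alone, 5 members were higher and 5 lower, with a median of -0.056 against 0.134 for all genes, and the members' median then lay 0.19 below that of all genes, against 0.188 with TMM; 26.8% of all genes were then higher and 12% lower. Cell type markers moved with age in heads as well. At 45 d over 3 d, 8 of 9 muscle markers were lower (median -0.96), 5 of 6 neuron markers (-0.63) and 5 of 7 photoreceptor markers (-0.55), with 0 higher in each list (edgeR). Summed levels of the muscle markers were 2243 to 2319.6 CPM at 45 d and 3946 to 5819.9 CPM at 3 d, those of the neuron markers 3059.8 to 3240.4 CPM at 45 d and 4496 to 5628 CPM at 3 d, and those of the photoreceptor markers 30384 to 53813 CPM at 45 d and 49392 to 57219 CPM at 3 d. At 15 d over 3 d, 8 of 9 muscle, 4 of 6 neuron and 1 of 7 photoreceptor markers were lower. The part of these markers in the members' changes was not tested.

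mRpS9 had the clearest decline with age in heads. Its levels were 58.8, 65.9 and 60.9 CPM at 3 d, 43.1, 37.3 and 34.9 at 15 d, 38.6, 34.8 and 36.8 at 30 d and 30.9, 36.3 and 34.9 at 45 d. Every library of 15, 30 and 45 d was below every library of 3 d. It was the only member called at 15 d over 3 d (log2 -0.69 ± 0.10, adjusted p = 0.000343), where 7.85% of all genes were lower and 5% higher. In that step 0 members were higher with edgeR, 1 at an unadjusted p under 0.05 and 0 with DESeq2. Its change at 45 d over 3 d was -0.86 ± 0.10 on the log2 scale (adjusted p = 7.23e-06). The gene lies on chromosome 3R:7889277-7902667, minus strand (FlyBase r6.36), and 25.1% of its exon bases are shared with ArgRS-m, a mitochondrial arginyl-tRNA synthetase on the opposite strand that also fell (log2 -0.63 ± 0.19, adjusted p = 0.0183). The part of shared bases in either value was not tested.

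The other 5 members that fell in heads by 45 d came from both subunits. mRpS11, of the platform of the small subunit, had 12.2, 14.4 and 15.3 CPM at 45 d and 24.3, 23.3 and 18.4 at 3 d (log2 -0.66 ± 0.14, adjusted p = 0.00161). mRpL55 had 12.2, 13.7 and 11.7 CPM at 45 d and 22.6, 15.8 and 19.9 at 3 d (log2 -0.61 ± 0.15, adjusted p = 0.00504). mRpS25, a small subunit protein of mitochondria alone, had 13.5, 18.4 and 16.3 CPM at 45 d and 24.7, 23.6 and 20.2 at 3 d (log2 -0.51 ± 0.13, adjusted p = 0.00758). These 3 kept their call under all 12 alternatives tried. mRpL41, also without a bacterial counterpart, fell by 0.58 ± 0.16 on the log2 scale (adjusted p = 0.0103, lost in 1 of 12 alternatives). The core protein mRpL13 fell by 0.51 ± 0.17 on the log2 scale (adjusted p = 0.0305), a call lost in 8 of 12 alternatives, with adjusted p from 0.0112 to 0.182. 35.2% of its exon bases are shared with another gene. The 1 member that rose, mRpS2, with 15.9, 17.7 and 15.95 CPM at 45 d and 11.1, 11.95 and 14.8 at 3 d, was at the edge of the threshold (log2 0.39 ± 0.15, adjusted p = 0.0495) and lost the call in 10 of 12 alternatives.

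Between 15 and 45 d the heads held 1 call, mRpL1 of the mobile stalk beside the tRNA exit site. It had 21.9, 23.3 and 23.2 CPM at 45 d and 29.99, 28.02 and 30.7 at 15 d (log2 -0.38 ± 0.11, adjusted p = 0.037), against 4.01% of all genes lower and 5.14% higher. No library of 45 d reached those of 15 d, but the call was lost in 9 of 12 alternatives (adjusted p from 0.0348 to 0.198). With edgeR 0 members were higher, 1 at an unadjusted p under 0.05 and 0 with DESeq2.

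**Figure D1:**
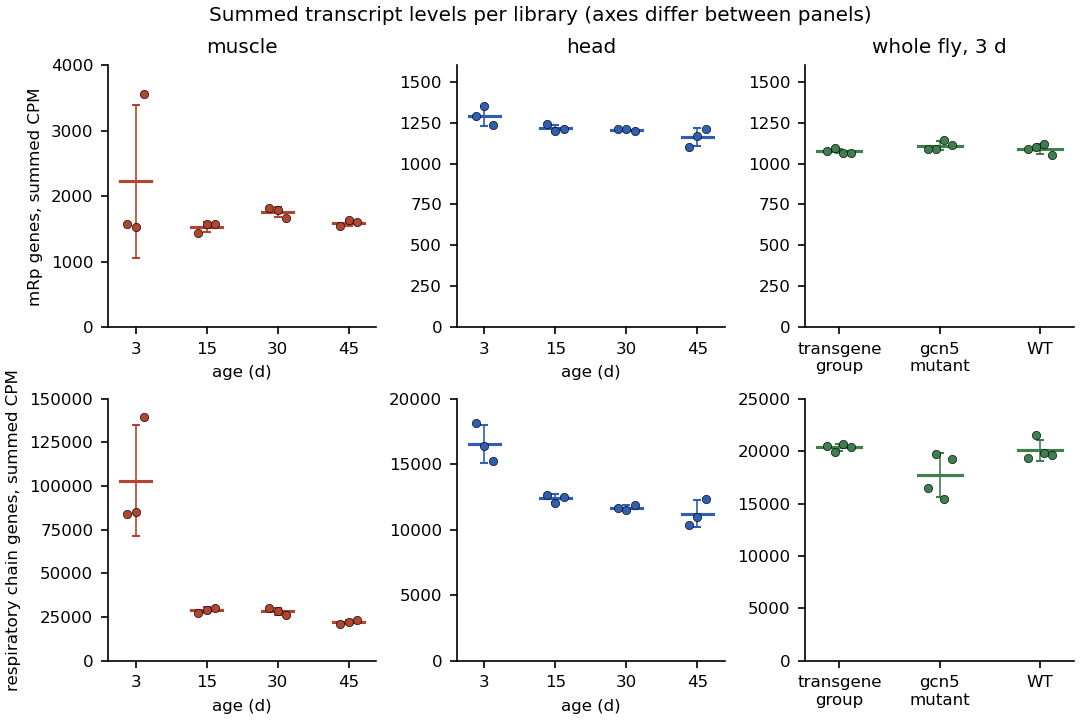
Summed CPM per library of the mitochondrial ribosomal protein genes (upper row) and of the nuclear respiratory chain genes (lower row), by age in muscle and head and by genotype in whole flies; points are libraries, lines are means and bars are SD, and the vertical axes differ between panels. The member sums of muscle at 3 d were 1579, 1533 and 3568 CPM and those of the other muscle libraries 1447 to 1824 CPM, while respiratory chain sums at 15 d and later lay far under all libraries of 3 d.

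In muscle, members of both subunits fell by 45 d and mRpS30 rose. Summed levels were 1579, 1533 and 3568 CPM at 3 d, 1447, 1572 and 1578 at 15 d, 1824, 1795 and 1675 at 30 d and 1547, 1633 and 1606 at 45 d. Apart from replicate 3 of 3 d, all muscle libraries lay within 1447 to 1824 CPM, with those of 30 d at the upper end. At 45 d over 3 d, 1 of 71 members was higher and 15 were lower in the fit of all 12 muscle libraries, where 8.21% of all genes were higher and 11.1% lower, and the median log2 change was -0.60. Without replicate 3 of 3 d, 12 were higher and 15 lower (21.6% and 22.5% of all genes), the 15 being the same genes, so that the members' shares were below those of all genes in that fit, and the median was -0.11 against 0.04 for all genes. Of those calls, the large subunit had 4 of 46 higher and 11 lower, and the small subunit 8 of 25 higher and 4 lower, with medians of -0.14 and 0.38. Members with a bacterial counterpart had 5 of 41 higher and 12 lower, and those without 7 of 30 higher and 3 lower.

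Scaling by library size alone raised the median of all genes. With it, 24 members were higher and 5 lower at 45 d over 3 d, with a median of 0.304, but the median of all genes was then 0.888, with 65.7% of all genes higher and 3.96% lower, so that 94.3% of all calls were higher, against 42.6% with TMM. Relative to all genes the members' median was -0.61 with TMM and -0.584 with library size alone. Leaving out replicate 1 or 2 of 3 d gave 29 or 27 members lower (11.1% and 11% of all genes). Leaving out replicate 1, 2 or 3 of 45 d gave 8, 8 or 7 (7.6%, 8.18% and 8.24% of all genes). In the muscle libraries, markers of muscle moved with age as well: 9 of 10 were lower at 45 d over 3 d (10 of 10 without replicate 3 of 3 d), and their sum was 9532 to 9983 CPM at 45 d, against 33548 to 64728 CPM at 3 d. Poly-A libraries do not measure the amount of ribosomal RNA. In them the 2 mitochondrial ribosomal RNAs together had 17592 to 21796 CPM at 45 d, against 209218 to 379042 CPM at 3 d. The part of these in the members' changes was not tested.

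**Figure D2:**
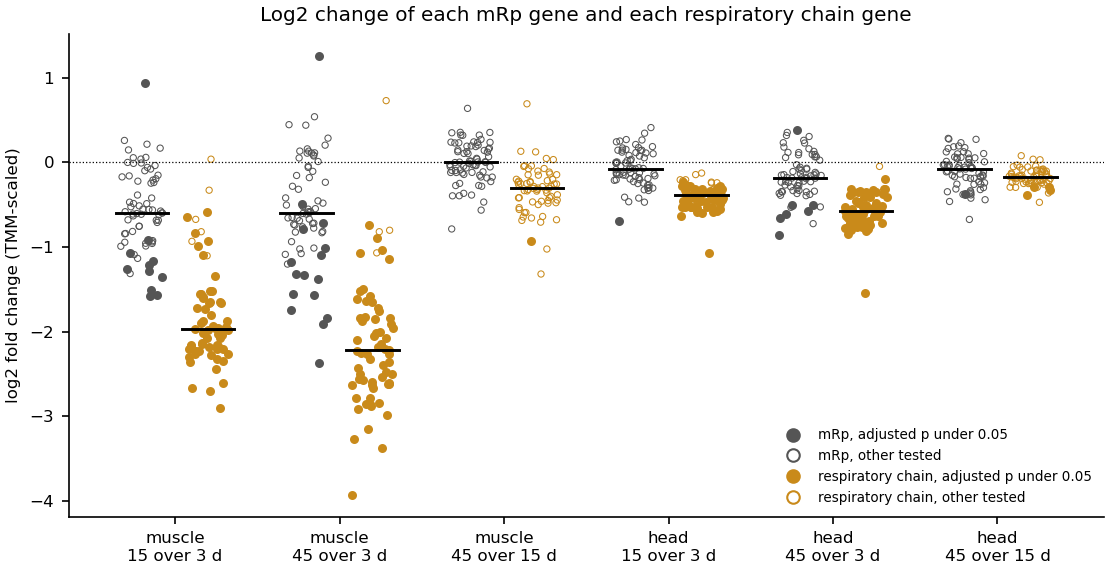
Log2 fold change (TMM-scaled, all libraries in the fit) of each tested mitochondrial ribosomal protein gene (grey) and each nuclear respiratory chain gene (orange) in 6 ageing comparisons; filled points have an adjusted p under 0.05, and black lines are medians. The members spread from -2.37 to 1.26 at 45 d over 3 d in muscle, around a median of -0.60 that becomes 0.304 with scaling by library size alone (all genes 0.888), and around 0 at 45 d over 15 d.

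mRpL28 fell most surely among the members in muscle. It had 146, 135 and 266 CPM at 3 d, 59.4, 66.2 and 65.6 at 15 d, 58.9, 51.3 and 44.6 at 30 d and 50.1, 48.7 and 46.5 at 45 d. All later libraries lay below those of 3 d. The change at 45 d over 3 d was -1.91 ± 0.24 (adjusted p = 0.000123) and -1.53 ± 0.10 without replicate 3. The gene lies on chromosome 2L:4973976-4975316, plus strand (FlyBase r6.36).

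mRpL52, a large subunit protein without a bacterial counterpart, had the largest fold among the members called lower. Its levels were 22.4, 23.3 and 69.1 CPM at 3 d, 9.81, 15.05 and 13.1 at 15 d, 6.09, 10.4 and 10.4 at 30 d and 5.57, 8.204 and 8.35 at 45 d (45 d over 3 d, log2 -2.37 ± 0.42, adjusted p = 0.00186, or -1.64 ± 0.25 without replicate 3). Its libraries of 3 d were above all others. mRpL27, whose bacterial counterpart lies near the peptidyl transferase centre, had 18.1, 17.5 and 16.98 CPM at 45 d and 40.4, 33.3 and 83.9 at 3 d (log2 -1.57 ± 0.28, adjusted p = 0.00194). mRpL9, a core protein of the large subunit, had 19.3, 24.1 and 24.5 CPM at 45 d and 41.2, 45.8 and 84.4 at 3 d (log2 -1.33 ± 0.24, adjusted p = 0.0018). In both genes every library of 45 d was below every library of 3 d. Without replicate 3 their changes were -1.07 ± 0.14 and -0.95 ± 0.13.

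The other 11 members lower at 45 d, 7 of the large and 4 of the small subunit, also kept the call without replicate 3. mRpL23, whose counterpart lines the rim of the exit tunnel, had 14.2, 13.9 and 11.97 CPM at 45 d and 26.8, 26.8 and 82.4 at 3 d (log2 -1.75 ± 0.37, adjusted p = 0.00531, or -0.997 ± 0.152 without replicate 3). mRpL22, a protein of the tunnel wall, fell by 1.01 ± 0.29 on the log2 scale (adjusted p = 0.0269), and mRpL17, beside the tunnel exit, by 1.32 ± 0.35 on the log2 scale (adjusted p = 0.0185). Without replicate 3 their changes were -0.52 ± 0.18 and -0.72 ± 0.23. mRpL45, which in mammals holds the ribosome to the inner membrane, fell by 0.79 ± 0.23 on the log2 scale (adjusted p = 0.0319), with -0.46 ± 0.14 without replicate 3. Within the small subunit, mRpS14 of the head domain fell by 1.84 ± 0.40 on the log2 scale (adjusted p = 0.00637; -1.14 ± 0.24 without replicate 3), although 35.8% of its exon bases are shared with other genes. The remaining members lower at 45 d were mRpL36, mRpS18A, mRpL42, mRpS9, mRpS10 and mRpL30, with log2 changes from -1.55 for mRpL36 to -0.49 for mRpS9, or -1.08 and -0.38 without replicate 3.

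mRpS30 moved the other way and was the member with the smallest p in muscle. It had 75.4, 64.8 and 78.96 CPM at 3 d, 132, 142 and 146 at 15 d, 208, 208 and 196 at 30 d and 176, 173 and 176 at 45 d. The libraries of 3 d were the lowest, those of 30 d the highest, and the ages did not overlap. At 45 d over 3 d the change was 1.26 ± 0.14 (adjusted p = 4.09e-05) and 1.32 ± 0.09 without replicate 3, and it kept its direction and its call under all 12 alternatives, library-size scaling and the fit without replicate 3 included. In heads the same gene had 51.7, 45.3 and 42.5 CPM at 3 d and 39.6, 53.2 and 52.1 at 45 d, and those groups overlapped (log2 0.06 ± 0.11, adjusted p = 0.739). It is on chromosome X:15786047-15788288, plus strand (FlyBase r6.36), and no exon base of it belongs to another gene.

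Leaving out replicate 3 of 3 d brought 11 further members past the threshold as higher at 45 d, mRpS2, mRpS7, mRpS22, mRpS23, mRpS25, mRpS29, mRpS31, mRpL1, mRpL3, mRpL16 and mRpL54. mRpS7 had 67.6, 62.2 and 179.6 CPM at 3 d, 99.5, 99.1 and 97.5 at 15 d, 130.3, 125 and 125 at 30 d and 91.4, 99.00 and 96.3 at 45 d. Replicates 1 and 2 of 3 d were the lowest muscle libraries, and replicate 3 the highest. Its change at 45 d over 3 d was 0.56 ± 0.09 without that library and -0.11 ± 0.31 with it (adjusted p = 0.86). mRpL16, whose counterpart contacts the tRNA in the aminoacyl site, had 32.9, 29.4 and 92.3 CPM at 3 d, 49.3, 46.8 and 57.3 at 15 d, 73.6, 76.2 and 71.2 at 30 d and 52.7, 66.5 and 57.9 at 45 d. It showed the same order of libraries, with a change of 0.92 ± 0.14 without replicate 3 and 0.20 ± 0.34 with it. mRpS31, of mitochondria alone, had 47.1, 45.1 and 46.2 CPM at 45 d and 21.1, 20.7 and 61.2 at 3 d, a change of 1.14 ± 0.14 without replicate 3 and 0.44 ± 0.33 with it. mRpS22, another such protein, changed by 1.06 ± 0.17 without it and 0.54 ± 0.28 with it. mRpS29, the counterpart of the human GTP-binding protein DAP3, changed by 0.38 ± 0.14 without it and 0.11 ± 0.19 with it. Of these 5, mRpS7 had opposite signs in the fits, and the calls of all 5 rest on leaving that library out.

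**Figure D3:**
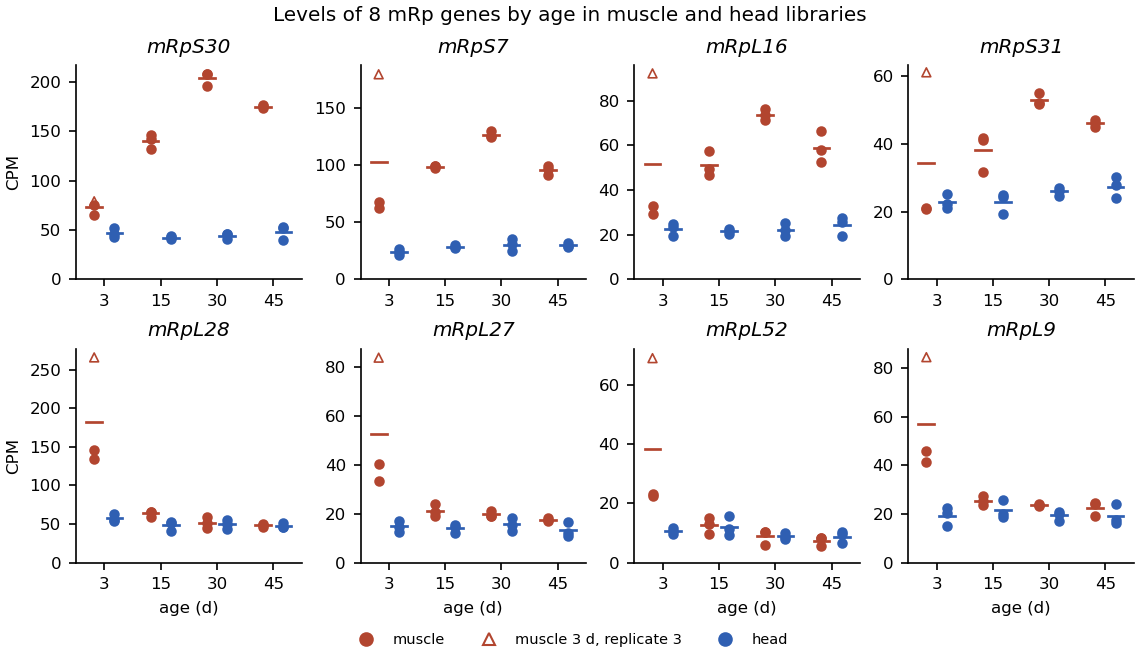
CPM by age of 4 members that were higher at later ages in muscle (upper row) and 4 that were lower (lower row), in muscle (red, left of each age) and head (blue, right); points are libraries, lines are means, and open triangles mark replicate 3 of muscle at 3 d. CPM were scaled within each tissue, so muscle and head are not on one scale. In mRpS30 the triangle lies with the other libraries of 3 d, at 79.0 CPM against 75.4 and 64.8 CPM, whereas in the other 7 genes it lies above them, and the upper genes other than mRpS30 passed the test only without that library.

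Members were already called in muscle at 15 d. At 15 d over 3 d, 1 member was higher and 10 lower (2.03% and 6.05% of all genes), with a median of -0.60, and without replicate 3 of 3 d 7 were higher and 11 lower (11.5% and 15.2% of all genes), with a median of -0.06. mRpS30 rose (0.94 ± 0.14, adjusted p = 0.000865; 0.997 ± 0.0929 without replicate 3) and mRpL28 fell (-1.51 ± 0.24, adjusted p = 0.00128; -1.14 ± 0.10 without replicate 3). mRpL44, with an RNase III fold, fell at 15 d (-1.07 ± 0.30, adjusted p = 0.0477; -0.54 ± 0.18 without replicate 3) without a call at 45 d. The others lower at 15 d were mRpL9, mRpL23, mRpL27, mRpL42, mRpL45, mRpL52, mRpS14 and mRpS18A. With replicate 3 in the fit, their folds ran from 1.89 for mRpL45 to 2.99 for mRpL52. Without it, only mRpS18A of these lost the call. Leaving out replicate 1, 2 or 3 of 15 d gave 2, 3 or 3 members lower (3.85%, 4.13% and 4.27% of all genes). Leaving out replicate 1 or 2 of 3 d gave 22 or 17 (6.9% and 6.21%). With library size alone 17 members were higher and 1 lower, where 55.4% of all genes were higher and 2.64% lower, and the median was 0.169 against 0.736 for all genes. In the fit of the groups of 15 and 3 d alone 0 members passed (0.083% of all genes higher and 2.18% lower).

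The later ages were also compared with each other. At 45 d over 15 d 0 members passed in either direction with edgeR, 2 were higher and 0 lower at an unadjusted p under 0.05, and DESeq2 also called 0 (0.925% of all genes higher and 0.767% lower with edgeR). The spread in that fit included the library that stood apart. Without it, edgeR put the biological coefficient of variation at 0.0817 in place of 0.21, and 2 members were higher and 3 lower (8.61% and 10% of all genes). These were mRpS22 (0.64 ± 0.13) and mRpS30 (0.32 ± 0.07) on one side and mRpL28 (-0.40 ± 0.10), mRpL2 (-0.47 ± 0.13) and mRpL52 (-0.79 ± 0.23) on the other. At 30 d over 15 d the same fit gave 10 members higher and 0 lower, against 2.88% and 3.56% of all genes, while the fit with the library gave 0 (0.0226% and 0.0677% of all genes; edgeR; 2 higher and 0 lower at an unadjusted p under 0.05, and 1 higher with DESeq2). The 10 were mRpS30, mRpS22, mRpS7, mRpS31, mRpL16, mRpL41, mRpL3, mRpL10, mRpL13 and mRpL1, with log2 changes from 0.36 to 0.73. At 45 d over 30 d only mRpS7 changed in that fit (-0.41 ± 0.07; 1.81% of all genes lower), and 0 members passed with the library included (edgeR; 0 also at an unadjusted p under 0.05 and with DESeq2).

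The ratio of summed large to small subunit transcripts put these shifts on a scale within each library, where scaling between libraries does not enter. In muscle it was 1.98, 2.01 and 2.09 at 3 d, 1.39, 1.401 and 1.42 at 15 d, 1.24, 1.19 and 1.21 at 30 d and 1.22, 1.296 and 1.24 at 45 d. Every library of 15 d was below those of 3 d and above those of 30 and 45 d, and replicate 3 of 3 d lay with its group. In heads the ratio was 1.77, 1.71 and 1.78 at 3 d, 1.76, 1.75 and 1.82 at 15 d, 1.68, 1.77 and 1.76 at 30 d and 1.76, 1.66 and 1.79 at 45 d, and all ages overlapped. mRpS30 and mRpS7 weigh heavily in the muscle sums. By its name mRpS30 is summed as small subunit, although its mammalian counterpart sits in the large one. Without mRpS30, the ratio averaged 2.28 at 3 d and 1.66 at 45 d in muscle. A ratio with mRpS30 on the large side was not computed. Without mRpS30 and mRpS7, the ratio averaged 2.69 ± 0.022 at 3 d, 2.24 ± 0.02 at 15 d, 2.08 ± 0.056 at 30 d and 2.02 ± 0.067 at 45 d in muscle (SD, n = 3). It remained highest at 3 d, but the values of 30 and 45 d then overlapped with those of heads, 2.06 ± 0.06 at 3 d and 2.13 ± 0.073 at 45 d.

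**Figure D4:**
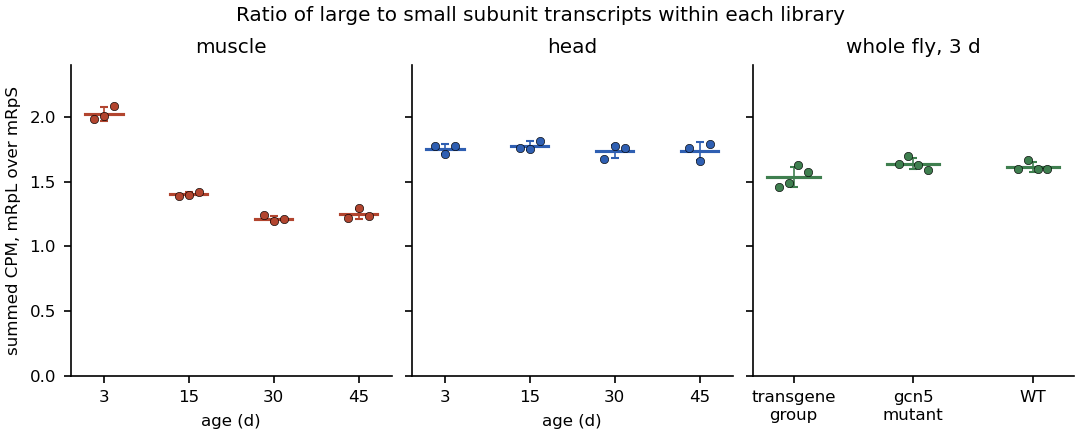
Ratio of the summed CPM of large subunit (mRpL) to small subunit (mRpS) genes in each library, by age in muscle and head and by genotype in whole flies of 3 d; points are libraries, lines are means and bars are SD. Muscle libraries lay at 1.98 to 2.09 at 3 d and 1.218 to 1.296 at 45 d, while head libraries lay between 1.66 and 1.82 at all ages. Genes are placed by name, so mRpS30 is summed as small subunit.

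The products of the mitochondrial ribosome assemble with nuclear partners. Of the nuclear respiratory chain genes, 0 of 66 rose and 62 fell at 45 d over 3 d in muscle, with a median of -2.22 (63 fell, with a median of -1.77, without replicate 3 of 3 d). In heads 0 of 64 rose and 62 fell, with a median of -0.58 (edgeR). Within a library, the sum of these genes was 13.7, 13.8 and 14.6 times that of the members in muscle at 45 d and 53.3, 55.7 and 39.1 times at 3 d. In heads it was 9.400, 9.405 and 10.2 times at 45 d and 14.04, 12.1 and 12.4 times at 3 d. In both tissues the ratio of 45 d was below that of 3 d in every library. Transcripts of the ribosomal RNAs were lower too: mt:srRNA changed by -4.88 ± 0.32 in muscle (adjusted p = 6.14e-07) and -1.57 ± 0.10 in heads (adjusted p = 1.54e-08), and mt:lrRNA by -3.75 ± 0.23 in muscle and -1.32 ± 0.10 in heads. Without replicate 3 of 3 d the muscle values were -4.61 ± 0.22 for mt:srRNA and -3.42 ± 0.08 for mt:lrRNA. Mean log2 CPM was 16.5 for mt:lrRNA and 9.22 for mt:srRNA in muscle, and 15.4 and 7.04 in heads. The libraries were of poly-A RNA, so these values do not measure the amount of ribosomal RNA. Cytosolic ribosomal protein genes went up in heads, with 63 of 82 higher and 0 lower (median 0.36). In muscle 0 were higher and 1 was lower with all libraries, against 77 higher and 1 lower without replicate 3 of 3 d.

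Factors that work with the mitochondrial ribosome were counted in the same way. For the lists here and in the paragraph above, the shares of all genes at 45 d over 3 d serve as a scale. In muscle 8.21% were higher and 11.1% lower, or 21.6% and 22.5% without replicate 3 of 3 d. In heads 17.5% were higher and 18.2% lower. Of the translation factors 0 of 11 rose and 4 fell in muscle at 45 d over 3 d (0 and 3 without replicate 3 of 3 d), among them the elongation factors mEFTu2 (-1.09 ± 0.17, adjusted p = 0.000638; -0.97 ± 0.14 without it) and mEFTu1 (-0.78 ± 0.19, adjusted p = 0.0112; -0.54 ± 0.10 without it). In heads 0 of 11 rose and 4 fell, including mEFTu1 (-0.34 ± 0.08, adjusted p = 0.0035) and mEFG1, which moves the ribosome along the message (-0.41 ± 0.12, adjusted p = 0.0142). Of the mitochondrial aminoacyl-tRNA synthetases and their relatives, 2 of 16 rose and 1 fell in muscle (3 and 1 without replicate 3), led by Slimp (1.69 ± 0.22, adjusted p = 0.000173; 1.78 ± 0.26 without it), and 0 rose and 1 fell in heads. Of the factors for mitochondrial transcription and RNA, 2 of 16 rose and 5 fell in muscle (2 and 6 without replicate 3), with TFAM, the packaging protein of mitochondrial DNA (-0.64 ± 0.15, adjusted p = 0.012; -0.58 ± 0.12 without it), and the polymerase PolrMT (-0.69 ± 0.16, adjusted p = 0.0103; -0.81 ± 0.11 without it) among those lower. In heads 1 rose and 1 fell. Of the 3 mitochondrial ribosome genes with other symbols (tko, bonsai and CRIF), 0 passed in muscle with or without replicate 3 of 3 d. Their median log2 value was -0.73 with that library and -0.14 without it, where tko had a positive value (0.09 ± 0.20). CRIF fell in heads (-0.64 ± 0.14, adjusted p = 0.00157).

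Muscle held more of the members' transcripts than head. At 15 d, an age without the library that stood apart, 26 of 71 members were higher in muscle and 0 lower (edgeR; 0 lower also at an unadjusted p under 0.05 and with DESeq2), where 23.1% of all genes were higher and 26.1% lower. The members' median log2 ratio was 0.42, against -0.024 for all genes, and 65 of 71 had a positive value. With library size alone 17 were higher and 2 lower (16.8% and 36.3% of all genes), with a median of 0.186 against -0.256 for all genes. Without replicate 3 of muscle at 3 d in the estimate of spread, 38 were higher and 1, mRpL55, was lower (-0.55 ± 0.18), against 29.3% and 31.9% of all genes. Without replicate 3 of muscle at 15 d, 17 were higher (21% of all genes). The nuclear respiratory chain genes had 64 of 66 higher and a median of 1.47, against the members' 0.42.

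The 3 members with the largest log2 ratios between the tissues were mRpS7, mRpS30 and mRpL16. mRpS30 had 132, 142 and 146 CPM in muscle and 40.5, 43.6 and 42.5 in head at 15 d (log2 2.09 ± 0.12, adjusted p = 2.51e-12). mRpS7 had 99.5, 99.1 and 97.5 CPM in muscle and 27.9, 27.7 and 30.3 in head (log2 2.14 ± 0.26, adjusted p = 2.61e-07). mRpL16 had 49.3, 46.8 and 57.3 CPM in muscle and 22.4, 21.7 and 20.3 in head (log2 1.61 ± 0.27, adjusted p = 2.47e-05). In all 3, every muscle library was above every head library. Those CPM were scaled within each tissue, whereas the log2 ratios come from a fit of both tissues together, so the CPM do not give the log2 ratios. The other 5 of the 8 members with the smallest p were mRpS31 with a log2 ratio of 1.10 ± 0.25, mRpL45 with 0.85 ± 0.19, mRpL38 with 0.84 ± 0.18, mRpL3 with 0.73 ± 0.17 and mRpS9 with 0.52 ± 0.11. Their adjusted p-values ran from 0.000424 to 0.00101. All 8 kept their call under the 13 alternatives tried. The remaining members called higher in muscle had folds from 1.38 for mRpL37 to 2.34 for mRpL41. Gut markers were higher in muscle (7 of 7) as well, and their part in the members' ratios was not tested.

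The change between 15 and 45 d was set between the tissues in one fit. Muscle minus head, 0 of 71 members differed in either direction with edgeR (3 higher and 0 lower at an unadjusted p under 0.05, 0 with DESeq2), where 0.0315% and 0.136% of all genes did, and the median was 0.11. Without the library that stood apart 3 were higher and 0 lower (1.05% and 1.81% of all genes): mRpL54 (1.07 ± 0.27), mRpS22 (0.74 ± 0.19) and mRpS25 (0.69 ± 0.19), all without a bacterial counterpart. mRpS22 had 54.1, 55.5 and 57.6 CPM at 45 d and 36.6, 33.8 and 36.95 at 15 d in muscle, and 21.9, 32.8 and 29.8 CPM at 45 d and 27.4, 28.02 and 32.6 at 15 d in head. The ages did not overlap in muscle for this gene. In mRpL54 and mRpS25, every head library of 45 d lay below those of 15 d. Without the library that stood apart, the largest change of a large subunit member in muscle at 45 d over 15 d was 0.36. Neither mRpL54 nor mRpS25 was called between 15 and 45 d in head or muscle.

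In whole flies few members differed between the Gcn5 genotypes. The Gcn5 transcript itself had 3071, 3123, 2753 and 2925 CPM in the transgene group, 36.5, 36.3, 36.9 and 37.6 in the gcn5 mutant and 45.5, 35.7, 28.3 and 34.3 in WT. The transgene group was far above both others, and the mutant overlapped with WT, so the count of this transcript does not check the mutant label. Summed member levels were 1079, 1093, 1066 and 1066 CPM in the transgene group, 1090.1, 1087, 1143 and 1114 in the mutant and 1086, 1103, 1121 and 1051 in WT, and all 3 groups overlapped. In the mutant over WT 2 of 70 members were higher and 1 lower, where 6.37% of all genes were higher and 8.82% lower, with a median of 0.05. In the transgene group over the mutant 2 were higher and 0 lower (5.27% and 4.11% of all genes, median -0.11), and over WT 2 were higher and 0 lower (7.6% and 8.23%, median -0.047). For lower calls, 1 member each had an unadjusted p under 0.05 in those 2 comparisons, and DESeq2 gave 0. The comparisons share groups, so their values are not independent of each other.

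mRpS35, a small subunit protein without a bacterial counterpart, was low in the mutant. It had 17.4, 25.5, 24.1 and 22.5 CPM in the transgene group, 15.8, 15.1, 11.3 and 14.5 in the mutant and 22.1, 26.3, 31.1 and 21.98 in WT. All mutant libraries lay below those of both other groups, which overlapped with each other. The change was -0.84 ± 0.19 in the mutant over WT (adjusted p = 0.00167) and 0.66 ± 0.19 in the transgene group over the mutant (adjusted p = 0.0191). The first kept its call under 14 of 14 alternatives and the other under 11. The transgene group over WT was not called (-0.17 ± 0.17, adjusted p = 0.551). The gene is on chromosome 3L:2780899-2782105, plus strand (FlyBase r6.36) and shares no exon base with another gene.

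mRpL39, a large subunit protein without a bacterial counterpart, differed from WT in both other groups. It had 22.99, 14.5, 19.97 and 21.7 CPM in the transgene group, 25.5, 20.3, 21.6 and 19.2 in the mutant and 13.3, 9.38, 8.68 and 12.7 in WT. Every WT library was below every library of the transgene group and the mutant. The change was 0.95 ± 0.21 in the mutant (adjusted p = 0.00115) and 0.83 ± 0.20 in the transgene group over WT (adjusted p = 0.00389), both called under 14 of 14 alternatives. Its exons share bases with Zip71B on the opposite strand, a member of a zinc transporter family, and reads were counted without a strand setting. Zip71B was higher in the same 2 comparisons (0.82 ± 0.15, adjusted p = 8.56e-05, and 0.60 ± 0.14, adjusted p = 0.00345). The shared bases are 0.264% of the exon bases of mRpL39, and their part in its change was not tested.

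The remaining calls were less firm. mRpL30 had 13.98, 19.8, 22.1 and 17.5 CPM in the mutant and 10.1, 15.95, 13.7 and 5.72 in WT, and the groups overlapped (log2 0.71 ± 0.24, adjusted p = 0.0411, called in 6 of 14 alternatives). mRpS9 had 41.2, 49.6, 43.3 and 42.96 CPM in the transgene group, 37.1, 35.9, 31.4 and 28.6 in the mutant and 35.4, 26.3, 32.9 and 32.97 in WT. The transgene group was above both others in every library, by 0.42 ± 0.14 over the mutant (adjusted p = 0.0445, called in 4 of 14 alternatives) and 0.47 ± 0.13 over WT (adjusted p = 0.0136, called in 12 of 14). In the authors' deposited table, 1 of 72 members was higher and 1 lower in the mutant over WT, 1 higher and 0 lower in the transgene group over the mutant and 2 higher and 0 lower over WT. Of all genes in the authors' deposited table, 4.92% were higher and 6.48% lower in the mutant over WT, 4.09% and 3.03% in the transgene group over the mutant and 5.95% and 6.15% over WT. Gut markers moved with these genotypes: 7 of 8 were lower in the mutant over WT, and their sum was 2135 to 3243 CPM in the transgene group, 1481 to 2867 in the mutant and 5696 to 7114 in WT. Their part in the members' values was not tested. The ratio of large to small subunit transcripts was 1.46, 1.49, 1.63 and 1.58 in the transgene group, 1.64, 1.698, 1.63 and 1.59 in the mutant and 1.598, 1.67, 1.597 and 1.59 in WT, with overlap between all 3. Without the 5 members of highest mean level in muscle, it was 1.433 to 1.634 in the transgene group, 1.58 to 1.75 in the mutant and 1.48 to 1.57 in WT, so that the mutant libraries then lay above those of WT. The mutant and WT overlapped without mRpS30 alone (1.75 to 1.90 and 1.73 to 1.81). They also overlapped without mRpS30 and mRpS7 (1.91 to 2.10 and 1.84 to 1.96).

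**Figure D5:**
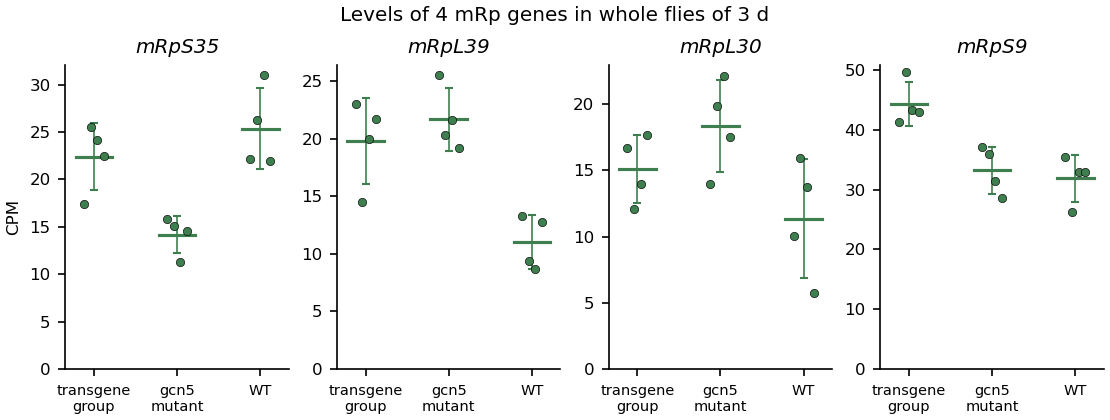
CPM of the 4 members called in a genotype comparison, in whole flies of 3 d from the transgene group, the gcn5 mutant and WT; points are libraries, lines are means and bars are SD. The mutant libraries of mRpS35 lay at 11.3 to 15.8 CPM, below all of both other groups, and the WT libraries of mRpL39 lay at 8.68 to 13.3 CPM, below all of both other groups.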

How the data were processed

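The deposited whole-fly values are read-pair counts by gene, which the authors made with featureCounts 2.0.1 on FlyBase r6.36 without a strand setting, per the file headers, which also give exon length per gene. The deposited head and muscle values are counts per gene followed by 5 tallies, left out here; which tool, build and strand setting made them is uncertain. The submitters' processing notes name DESeq2, featureCounts 2.0.1, STAR 2.7.6a and Trim Galore 0.6.6. For whole flies the authors also deposited log2 fold changes with adjusted p-values from DESeq2, per the file headers. Symbols were matched for 17358 of 17494 and 17547 of 17612 identifiers.

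Genes were kept by filterByExpr (count of 10, total of 15), leaving 8866 in muscles, 9035 in heads, 9538 in a joint fit and 10723 in whole flies. With R 4.3.3 and edgeR 4.0.16, libraries were scaled by TMM and tested by quasi-likelihood with one mean per group, with Benjamini-Hochberg adjustment over all genes of a comparison and a threshold of 0.05. The standard error is the log2 change divided by the square root of F. The biological coefficient of variation came to 0.21 in muscles, 0.0859 in heads and 0.0938 in whole flies, and the tests were checked on simulated counts. Alternatives were RLE size factors, library size alone, no filter, DESeq2 1.42.0, the compared groups only, a replicate block and leaving out each library. CPM uses the kept genes and the scaling of the separate fits of heads, muscles and whole flies.

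The members and lists were chosen with earlier results of these data known. Each comparison names members past the threshold, up to 8 per direction by p, with the others either named too or given only by their range. Also named are 3 of the highest and lowest levels per kb and up to 3 genes per other list. Which of these get values by library, the members named from fits without a library and the comparisons with 30 d in muscle were decided after the values were seen. None of the 42 pairs of libraries within groups held identical values. No sequences are shown.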

Additional observations from a re-analysis of the deposited data

Results flagged for a closer look

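In WT whole flies, the ratio of summed large to small subunit transcripts stood apart in 1 library. Replicate 2 had a ratio of 1.67, and its gap to the nearest of the other 3 libraries was 0.964 of the range of the group, above Dixon's 95% limit for 4 samples. Chance gives such a gap in about 1 of 20 groups, and 18 checks were made. They covered several measures in the same 3 whole-fly genotypes, so they were not independent of each other. Heads and muscles were not checked. The 3 genotypes overlapped in this ratio with and without that library.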

How the results depend on the processing

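Of 42 results for named members, 20 stayed past the threshold under every alternative run, and none of 526 alternative values reversed its direction; 93 were no longer past the threshold. Of the counts of members, 272 alternative values stayed within 1.5 times the reported count and 74 did not. Shares of all genes in the same direction stand in brackets. With library size alone, muscle had 24 members higher and 5 lower at 45 d over 3 d (65.7% and 3.96%). At 15 d over 3 d it had 17 higher and 1 lower (55.4% and 2.64%). Heads then had 5 higher at 45 d over 3 d (26.8%) and 0 lower at 45 d over 15 d (2.68%). Muscle over head had 17 higher and 2 lower (16.8% and 36.3%), and the transgene group over the mutant had 1 higher (5.19%). With the compared groups only, muscle had 0 higher and 0 lower at 15 d over 3 d (0.083% and 2.18%) and 4 lower at 45 d over 3 d (5.15%). It had 2 higher and 3 lower at 45 d over 15 d (8.48% and 8.75%). Muscle also had 10 higher at 30 d over 15 d (4.21%) and 1 lower at 45 d over 30 d (1.95%). That setting gave 2 higher for the tissue difference in change (0.94%) and 1 lower for muscle over head (31.6%). The same setting gave 0 higher in heads at 45 d over 3 d (15.8%) and 1 higher in the mutant over WT (5.86%). Of these muscle fits, those without 3 d do not hold its replicate 3, and those with 3 d do. The causes of these changes in count were not tested. Heads at 45 d over 3 d had 0 higher with RLE factors (17.2%), with no filter (12%) and with DESeq2 (13.2%). DESeq2 gave 0 lower in heads at 45 d over 15 d (3.31%) and 1 higher in muscle at 30 d over 15 d (0.316%). In whole flies DESeq2 gave 1 higher in the mutant over WT (5.75%) and 1 higher in the transgene group over the mutant (4.85%). With no filter 2 were lower in the mutant over WT (7.22%). The causes of these were not tested.

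Between libraries of the same replicate number, deviations correlated above 0.1 in 0 of 18 pairs in muscle, 2 of 18 in heads and 0 of 12 in whole flies. With 3 or 4 libraries per group, these values do not decide whether the replicate numbers pair the libraries. With a replicate block, heads had 0 higher and 7 lower at 45 d over 3 d (17.2% and 18% of all genes). Muscle had 1 higher and 13 lower at 45 d over 3 d (6.94% and 9.63%) and 1 higher and 7 lower at 15 d over 3 d (1.34% and 5.15%). The mutant over WT had 1 higher and 1 lower (6.27% and 8.61%), and the transgene group over the mutant had 1 higher (5.12%). The other counts of members did not change.

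Leaving out each library in turn, muscle had 7 to 29 lower and 1 to 12 higher at 45 d over 3 d, 2 to 22 lower and 1 to 7 higher at 15 d over 3 d, 0 to 2 higher and 0 to 3 lower at 45 d over 15 d, 0 to 10 higher at 30 d over 15 d and 0 to 1 lower at 45 d over 30 d. Heads had 0 to 1 higher and 5 to 9 lower at 45 d over 3 d and 0 to 1 lower at 45 d over 15 d. Muscle over head had 17 to 38 higher and 0 to 1 lower, and the tissue difference in change 0 to 3 higher. The mutant over WT had 1 to 2 higher and 1 to 2 lower, and the transgene group 0 to 2 higher over the mutant and 1 to 2 over WT. The shares of all genes moved as well. In muscle at 45 d over 3 d, the 12 higher came with 21.6% of all genes higher. There the 7 lower came with 8.24% and the 29 lower with 11.1% of all genes lower. At 15 d over 3 d, the 7 higher came with 11.5% higher, and the 2 and 22 lower with 3.85% and 6.9% lower. At 30 d over 15 d, the 10 higher came with 2.88%. Muscle over head had 17 higher with 21% and 38 with 29.3%.

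The level of the subunit ratio, and its place against heads, depend on which members are summed. In each variant below, every muscle library of 3 d lay above every later muscle library. Without mRpS30 it averaged 2.28, 1.80, 1.63 and 1.66 in muscle at 3, 15, 30 and 45 d, 1.95, 1.97, 1.93 and 1.96 in heads, and 1.68 in the transgene group, 1.83 in the mutant and 1.77 in WT. Without mRpS30 and mRpS7 it averaged 2.69, 2.24, 2.08 and 2.02 in muscle, 2.06, 2.12, 2.09 and 2.13 in heads, and 1.82 in the transgene group, 1.99 in the mutant and 1.90 in WT. Without the 5 members of highest mean level in muscle it averaged 2.13, 1.86, 1.72 and 1.68 in muscle, 1.79, 1.86, 1.80 and 1.83 in heads, and 1.52 in the transgene group, 1.66 in the mutant and 1.53 in WT. In this variant alone the mutant and WT did not overlap. A member had a median of 46 counts in a library, and the effect of depth on the calls was not tested.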
